A study of Homo sapiens with 4 samples.

Results

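Proteins of the BCL2 family decide whether the outer membrane of the mitochondrion stays closed or is opened during apoptosis. Survival members (BCL2, BCL-XL, MCL1) bind and restrain the pore-forming effectors BAK and BAX, and the BH3-only members (BID, BIK, BMF, BIM) are sensors that engage the survival members or activate the effectors. Inhibitors of apoptosis (IAPs), among them XIAP and cIAP2, act further down, on caspases and on the signals of death receptors. The members described here are 10 genes taken by name from these groups, which are BCL2, BCL2L1, MCL1, BAK1, BID, BIK, BMF, BCL2L11, XIAP and BIRC3. They are 10 of the 19593 genes with a matched symbol on the arrays and are measured by 19 probes. The files list 9 of the 10 under these symbols, and XIAP under its older name BIRC4, from which it was matched through the RefSeq transcript NM_001167.

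The samples were derived from HCT116, an established colorectal carcinoma cell line. The vector control (vec) and the plakophilin3 (PKP3) knockdown clone (shpkp3-2), made by stable transfection of a plasmid encoding an shRNA, were each hybridized to 2 single color arrays. Each group is 1 clone, so that every difference compares these clones. For both, the labels name 5 μg/ml of puromycin as selection, while the methods name blasticidin. RNA for the arrays numbered 1 and RNA for those numbered 2 came from separate time points, and the design text calls them biological replicates without saying what was repeated, so that the p values measure the spread between these arrays, which may be technical.

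The levels given below are log2 intensities relative to the 75th percentile of the array, so that 0 is the level of that percentile. This percentile was an intensity of 499 for the first vec array and lay between 374 and 381 for the others, and between 60.5% and 63.5% of spots were well above background. PKP3, the targeted gene, had levels of 5.39 and 5.91 in vec but 3.17 and 3.04 in shpkp3-2, which is 17.2% of the vec level. Its log2 fold change was -2.54 with a standard error of 0.23 (limma, adjusted p = 0.0188), and the call was lost with no filter on dim probes, with a weaker background flag and with the equal-variance test (adjusted p = 0.135, 0.145 and 0.436). Of 7 markers of colon epithelial cell lines, 6 were well above background on each of the arrays, and VIL1 was so on 1 of 4 by its brightest probe. Of 8 markers of other cell types, 5 were above background on all arrays, while PTPRC, COL1A2 and PECAM1 were above it on none. The summed intensity of these 8 markers was 560 to 933 in vec and 515 to 667 in shpkp3-2, and their part in the results was not tested. In RNA of whole cultures, fewer cells that express a gene and less RNA per cell cannot be told apart.

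None of the 10 genes passed the test between the clones. limma with Benjamini-Hochberg adjustment over all 30512 probes tested called 0 of 10 higher and 0 of 10 lower in shpkp3-2, where it called 0.275% of all 14571 genes tested higher and 0.178% lower. At an unadjusted p under 0.05, 0 of 10 members were higher and 1, BCL2L1, was lower, against 6.99% and 4.52% of all genes. The equal-variance test had 1 other member, BIK, higher and 0 lower under 0.05 before adjustment (6.05% and 3.76% of all genes), and 0 after it. With the RNA collections as a block, limma called 0 of 10 members, against 2.64% of all genes. All 10 genes had a tested probe, and 18 of the 19 probes passed the filter on dim signals. By probe, 0 of 18 were called higher and 0 lower (0.246% and 0.144% of all probes tested), and at an unadjusted p under 0.05 from limma 0 were higher and 2 lower, both of BCL2L1 (7.35% and 4.98%). The median log2 fold change of the members was 0.30, against 0.05 over all genes tested, but 0.10 without the first vec array and 0.14 without the second shpkp3-2 array. The 6 tested colon epithelial markers were all above 0 too, with a median of 0.28, and their part in the members' median was not tested. Of the 10 members, 8 were above 0, as were 57.4% of all genes. Among the probes 14 of 18 were above 0, against 56.9% of all probes, and 13 of 17 without a BCL2L11 probe that passed the filter only through shpkp3-2.

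**Figure D1:**
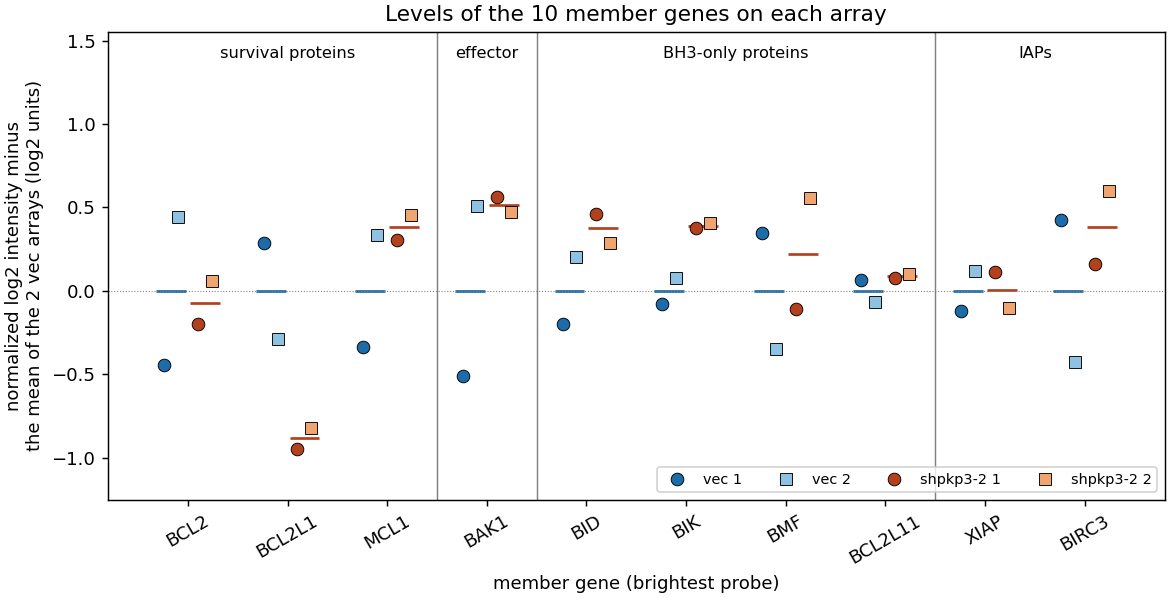
The log2 level of the 10 member genes on each array, minus the mean of the vec arrays, with circles for the first and squares for the second RNA collection and horizontal bars for clone means (n = 2 each). Both shpkp3-2 arrays lie below both vec arrays for BCL2L1 and above both for BID, BIK and BCL2L11, and the arrays of the clones overlap for the other genes.

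BCL2L1 encodes BCL-XL, a survival protein, and by splicing also the short form BCL-XS, and it had the largest difference among the members. Its brightest probe, listed under NM_138578, had levels of 0.03 and -0.55 for vec, against -1.21 and -1.08 for shpkp3-2. Both shpkp3-2 arrays were lower than either vec array. Clone means were -0.26 ± 0.41 for vec and -1.15 ± 0.09 for shpkp3-2 (SD, n = 2 each). The difference of -0.88 on the log2 scale (standard error 0.24, 95% interval -1.48 to -0.29) did not pass the threshold, with an adjusted p of 0.258 and an unadjusted p of 0.0107 from limma. As a ratio to vec it was 0.542, with an interval of 0.359 to 0.817. Of all genes tested, 1.47% had a lower log2 fold change. Within the first RNA collection the difference was -1.24 and within the second it was -0.53. Without the first vec array it was -0.60 and without the second it was -1.17.

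A second BCL2L1 probe is listed under NM_001191. Its sequence, 5′ to 3′ like the other probe sequences from the deposited files, is shown because this separate probe gave a difference of like size.

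BCL2L1 (NM_001191): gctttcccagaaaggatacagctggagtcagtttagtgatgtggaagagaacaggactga

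The levels of this probe were -2.82 and -3.50 for vec, against -3.95 and -4.07 for shpkp3-2. Here too the arrays of the clones did not overlap. Between clone means the log2 difference was -0.84 (standard error 0.26, 95% interval -1.49 to -0.20, adjusted p = 0.306 from limma). With 1 array left out in turn this difference ran from -1.19 to -0.50. Which splice form each probe reads was not analysed here.

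BCL2, the survival protein after which the family is named, has 2 probes. The brighter, listed under M13995, had levels of -0.01 and 0.88 for vec, against 0.23 and 0.49 for shpkp3-2, so that both shpkp3-2 arrays lay between the vec arrays. Its log2 fold change was -0.07 (95% interval -0.85 to 0.71, adjusted p = 0.946 from limma), and as a ratio to vec the interval spans 0.555 to 1.63. It was -0.51 without the first vec array, and it turned to 0.37 without the second vec array and to 0.06 without the first shpkp3-2 array. The other probe, under NM_000633, had levels of -3.47 and -3.18 for vec, against -2.98 and -3.17 for shpkp3-2, with a log2 fold change of 0.25 (95% interval -0.23 to 0.73, adjusted p = 0.638 from limma). The probes thus differed in sign, and neither difference was past the threshold.

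MCL1 is a short-lived survival protein. Its brightest probe had levels of 4.51 and 5.18 for vec, against 5.15 and 5.30 for shpkp3-2, where the first vec array stood lowest and the other arrays lay close together. MCL1 was thus 0.38 higher on the log2 scale (95% interval -0.26 to 1.02, adjusted p = 0.593 from limma), but 0.05 without the first vec array and 0.72 without the second. Another probe also had the first vec array lowest, by a wider gap, with levels of -0.61 and 0.78 for vec, against 0.81 and 0.98 for shpkp3-2, and a log2 fold change of 0.81 (95% interval -0.28 to 1.89, adjusted p = 0.521 from limma). This difference rested on the first vec array. Without it the log2 fold change was 0.11, and without the second vec array it was 1.51. The sequence of the dimmest of the 3 probes is shown because the arrays hardly differed there.

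MCL1 (NM_021960): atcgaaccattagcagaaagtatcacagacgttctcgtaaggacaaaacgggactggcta

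Its levels were -1.82 and -1.98 for vec, against -1.81 and -1.82 for shpkp3-2, a log2 fold change of 0.09 (95% interval -0.35 to 0.52, adjusted p = 0.869 from limma). All 3 probes were above 0, and their sizes were not alike.

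**Figure D2:**
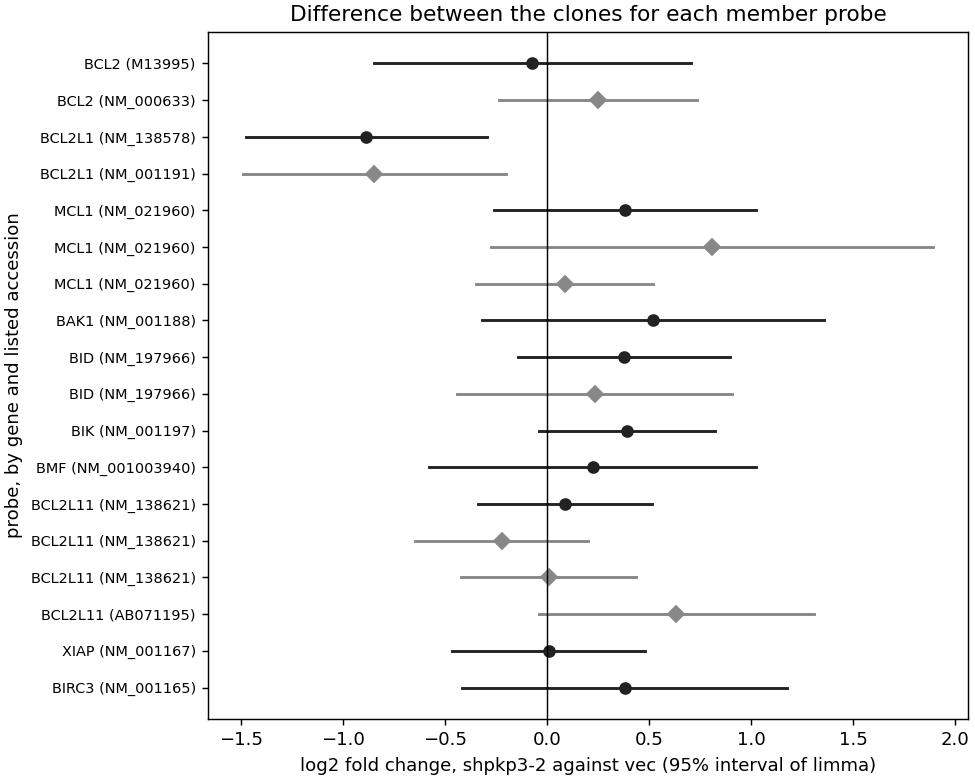
Log2 fold changes (shpkp3-2 over vec) for the 18 tested probes of the members, with the 95% interval of limma, in black circles for the brightest probe of a gene and in grey diamonds for the others. The intervals of both BCL2L1 probes lie below 0 before adjustment, and those of the other 16 probes include 0.

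BAK1 encodes BAK, the effector that forms pores in the outer mitochondrial membrane. Its probe had levels of 0.79 and 1.81 for vec, against 1.86 and 1.77 for shpkp3-2. The first vec array was far below the rest, and the second lay between the shpkp3-2 arrays. BAK1 was 0.52 higher on the log2 scale (standard error 0.34, 95% interval -0.32 to 1.36, adjusted p = 0.580 from limma). The difference was 1.07 in the first RNA collection and -0.04 in the second. Without the first vec array the log2 fold change was 0.01, and without the second it was 1.03.

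Among the BH3-only genes, BID encodes a protein that caspase-8 cleaves and that links death receptors to the mitochondrion. Its brighter probe had levels of 4.53 and 4.93 for vec, against 5.20 and 5.02 for shpkp3-2, which did not overlap. BID was 0.38 higher on the log2 scale (95% interval -0.14 to 0.90, adjusted p = 0.531 from limma), with 0.18 when the first vec array was left out and 0.58 when the second was. The second BID probe gave 0.23 (95% interval -0.44 to 0.91, adjusted p = 0.753 from limma), and there the clones overlapped.

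BIK, a BH3-only protein of the endoplasmic reticulum, had levels of 2.36 and 2.52 for vec, against 2.81 and 2.84 for shpkp3-2. The clones did not overlap, and the arrays of each clone lay close together. The log2 fold change of 0.39 (standard error 0.18, 95% interval -0.04 to 0.82) had an unadjusted p of 0.0684 and an adjusted p of 0.448 from limma. Within the RNA collections BIK differed by 0.46 and 0.33, and leaving out any 1 array gave 0.31 to 0.47.

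BMF encodes a BH3-only protein that is held at the cytoskeleton in healthy cells. Its levels were -1.55 and -2.24 for vec, against -2.01 and -1.34 for shpkp3-2, so that the first vec array and the second shpkp3-2 array were the high ones. BMF was 0.22 higher on the log2 scale (95% interval -0.58 to 1.03, adjusted p = 0.809 from limma), made of -0.46 in the first RNA collection and 0.91 in the second. The direction turned without the second vec array (-0.13) and without the second shpkp3-2 array (-0.11).

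BCL2L11 encodes BIM, which binds all of the survival proteins, and it has 5 probes. The brightest had levels of 2.14 and 2.01 for vec, against 2.15 and 2.18 for shpkp3-2, a log2 fold change of 0.09 (95% interval -0.34 to 0.52, adjusted p = 0.862 from limma). As a ratio to vec the interval is 0.791 to 1.43. Of the other probes, 2 overlap by 46 bases and are not independent readings. Their sequences are shown because the differences read from them were of unlike sign, with the shared bases in capitals.

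BCL2L11, probe 2 (NM_138621): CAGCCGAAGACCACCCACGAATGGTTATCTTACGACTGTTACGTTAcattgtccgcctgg

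BCL2L11, probe 3 (NM_138621): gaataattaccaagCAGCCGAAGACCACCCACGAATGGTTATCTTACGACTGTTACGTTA

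Probe 2 gave a log2 fold change of -0.22 (95% interval -0.64 to 0.20) and probe 3 one of 0.01 (95% interval -0.42 to 0.44). The adjusted p from limma was 0.632 and 0.989. The intervals of these overlapping probes overlap widely. A dim probe listed under AB071195 was well above background on both shpkp3-2 arrays and on neither vec array, with intensities of 8.54 and 10.4 for vec against 14.2 and 11.3 for shpkp3-2. It entered the test only through shpkp3-2. The lowest intensity flagged as well above background was 8.41 to 9.74, depending on the array, though the 10.4 of the second vec array was not flagged. With the vec arrays set to that lowest intensity where they lay below it, the ratio of shpkp3-2 to vec was 1.47. This is not a lower bound, since without this step the 95% interval of the ratio was 0.973 to 2.47 (limma, adjusted p = 0.433). The remaining probe was above background on 1 array of each clone and was not tested.

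XIAP inhibits caspases directly. Its 1 probe is shown because the files give it under the older name.

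XIAP (NM_001167): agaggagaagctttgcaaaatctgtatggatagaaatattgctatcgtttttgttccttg

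The levels were -0.80 and -0.56 for vec, against -0.57 and -0.78 for shpkp3-2, and the clones covered the same range. XIAP had a log2 difference of 0.01 (standard error 0.19, 95% interval -0.47 to 0.48, adjusted p = 0.990 from limma), and it turned to -0.07 with median centring, and to just below 0 with quantile normalization and with normexp background correction. With 1 array left out in turn it ran from -0.11 to 0.13.

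BIRC3 encodes cIAP2, a ubiquitin ligase that acts in TNF receptor signalling and is itself a target of NF-κB. Its levels were -0.17 and -1.01 for vec, against -0.43 and 0.01 for shpkp3-2. As for BMF, the first vec array and the second shpkp3-2 array were high, and the clones overlapped. BIRC3 was 0.38 higher on the log2 scale (standard error 0.32, 95% interval -0.41 to 1.18, adjusted p = 0.660 from limma), made of -0.26 in the first RNA collection and 1.02 in the second. Without the second vec array it was -0.04.

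The members varied more between the vec arrays than between the shpkp3-2 arrays. The SD was larger in vec for 10 of 10 members, as it was for 67.9% of all genes tested. The median SD of the members was 0.44 in vec and 0.11 in shpkp3-2, against 0.19 and 0.11 over all genes. The sign of the difference was shared by both RNA collections for 5 of 10 members, which were BCL2L1, MCL1, BID, BIK and BCL2L11, and for 54.4% of all genes. The arrays of the clones did not overlap for 3 members that were higher and 1 that was lower in shpkp3-2, against 27.6% and 17.9% of all genes, and by probe for 7 and 3 of 18, against 27.2% and 18.0% of all probes. Without the BCL2L11 probe that passed only through shpkp3-2 these were 6 and 3 of 17. A difference of at least 2-fold from the vec mean on each shpkp3-2 array, with the higher clone well above background, was met by 0 of 10 members, against 1.19% of genes higher and 0.638% lower, and by 0 of their 18 probes, against 1.12% and 0.623% of probes.

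Likeness over the 4 arrays was measured as the root mean square distance between log2 levels after each gene was centred on its own mean. Of 45 pairs of members, BID and BIK (0.11) and BMF and BIRC3 (0.13) were closest. For BCL2L1, the closest of 64 genes of the lists were CXCL1 (0.13) and NAIP (0.24). These values describe 4 arrays of 2 clones.

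The other genes of the pathway were taken from lists of 59 genes, of which 55 could be tested. limma called 0 higher and 0 lower. At an unadjusted p under 0.05, 4 were higher and 4 lower, against the 6.99% and 4.52% of all genes given above. One of the higher ones, TNFSF10, entered the test only through shpkp3-2. The median log2 fold change of the 55 genes was 0.06, against 0.05 over all genes. With 1 array left out in turn 23 of the 55 changed sign, among them BCL2A1, BAX, BBC3, DYNLL1, DYNLL2, USP9X, BIRC5, CYCS and NFKBIA. Among the other survival genes, 2 of 3 could be tested, and BCL2L2 (BCL-W) and BCL2A1 (BFL-1) had log2 fold changes of 0.14 and -0.04. Of the other effectors, BAX had -0.15 by its brightest probe (95% interval -1.13 to 0.84) but 0.60 and 0.46 by its other probes, and BOK had 0.53 (95% interval -0.19 to 1.26), which ran from 0.13 to 0.94 with 1 array left out. All 6 other BH3-only genes were tested, and by their brightest probes they lay between -0.29 and 0.22, with BNIP3 at -0.25. BBC3 (PUMA) had -0.07 by its brightest probe but 0.37 and 0.25 by its other probes. The light chains DYNLL1 and DYNLL2, which tether BIM and BMF, had 0.06 and 0.05. Of the genes that set the turnover of the MCL1 protein, 2 of 3 were above 0, with FBXW7, of a ubiquitin ligase, at 0.37 (-0.03 by its other probe) and the deubiquitinase gene USP9X at 0.19, while HUWE1, of another ubiquitin ligase, was at -0.35.

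All 5 other inhibitors of apoptosis were tested. BIRC5 (survivin) had a log2 fold change of -0.05 and BIRC2 (cIAP1), the relative of BIRC3, of 0.35 (95% interval -0.24 to 0.94). NAIP, at -0.59, and BIRC7 (livin), at 0.63, had unadjusted p values of 0.0144 and 0.0408 and adjusted p values of 0.285 and 0.384 from limma. The IAP antagonists DIABLO (SMAC) and HTRA2 had -0.15 and 0.42, and XAF1 was at background on every array. By brightest probes, the 9 genes of the apoptosome and caspases lay between -0.51 for CASP2 and 0.63 for CASP10, an initiator caspase. The adjusted p of CASP2 and CASP10 was 0.373 and 0.271 from limma. The other CASP10 probes had 0.59 and 0.19, and the other CASP2 probes -0.19 and -1.03. The probe at -1.03 was dim, with an adjusted p of 0.166 from limma, or 0.0334 with the RNA collections as a block. CYCS (cytochrome c) had -0.03.

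Of the death receptor genes, 9 of 10 were tested and 7 of the 9 were above 0, or 6 of 8 without TNFSF10, as were 57.4% of all genes. The receptor gene TNFRSF1A was at -0.32, and TNFRSF10B was at -0.24 by its brightest probe and 0.12 by its other probe. The ligand gene TNFSF10 (TRAIL) was not well above background on either vec array. With vec values below the array's lowest intensity flagged as well above background raised to it, the ratio to vec was 1.49. This is not a lower bound, since without this step the limma interval of the ratio was 1.19 to 2.40 (adjusted p = 0.257). The adaptor genes FADD and TRADD had 0.26 and 0.20. Of the NF-κB targets beside BIRC3, 9 of 10 were tested. RELB had 0.55 and CXCL1 -0.69 (adjusted p = 0.306 and 0.288 from limma), while NFKBIA, the NF-κB inhibitor, had -0.07. Among genes of transcription factors that act on BH3-only genes, DDIT3 (CHOP) stood at -1.09, with a standard error of 0.42 (limma, adjusted p = 0.386). Its difference was -2.01 in the first RNA collection and -0.17 in the second, with the first vec array at an intensity of 534 and the other vec array at 188. JUN and FOXO1 had 0.37 and 0.29.

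**Figure D3:**
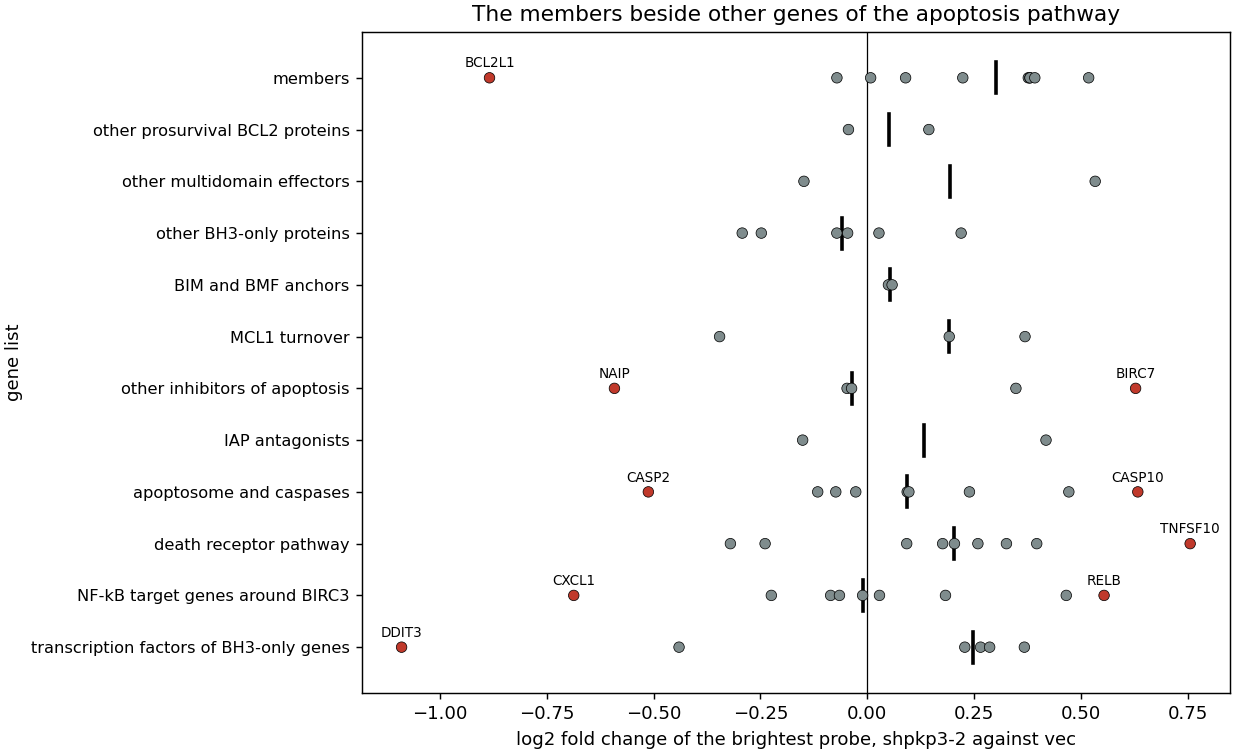
Log2 fold changes (shpkp3-2 over vec) for each tested gene of the members and of the other pathway lists, with a vertical bar at the median of a list and red points for genes with an unadjusted p under 0.05 from limma. BCL2L1 at -0.88 and DDIT3 at -1.09 are the lowest points, and 0 of the 65 genes passed the adjusted threshold.

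The promoter table of RefSeq (GRCh38.p14) holds 16 windows of 300 bases for 8 of the 10 members, while BIK and MCL1 have no entry in it. These windows were searched on both strands for the letters GTAAACA of FOXO factors, for the NF-κB consensus and for the letters TTCNNNGAA of STAT factors. Some windows of a gene overlap. The FOXO letters were in 1 of 16 windows, that of BCL2L11, against 3.42% of all 35116 windows. The NF-κB consensus was in 2 of 16 windows, 1 of BIRC3, which held 2 matches, and 1 of BMF, against 5.91% of all windows. The STAT letters were in 0 of 16, against 7.66%. All matches in the members' windows are shown, with the motif in capitals. The capitals are given on the strand of the gene, and the NF-κB consensus reads on the opposite strand in each. They describe the letters, and no binding was measured.

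BCL2L11, FOXO, chr2:111120681-111120707, plus strand: agttactccgGTAAACAcgccagggac

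BIRC3, NF-κB, chr11:102317275-102317304, plus strand: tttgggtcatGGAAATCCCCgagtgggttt

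BIRC3, NF-κB, chr11:102317339-102317368, plus strand: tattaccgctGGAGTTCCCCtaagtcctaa

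BMF, NF-κB, chr15:40108880-40108909, minus strand: agctgtttgcGGGATGCCCCgagcaggcgt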

How the data were processed

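Cy3 labeled RNA of both HCT116 clones was measured on 4 arrays of 1 slide, on which position and clone cannot be told apart. The authors deposited the Agilent Feature Extraction output of each array (version 9.1 per the labels, 10.7.3.1 per the file headers). The deposited intensity of a spot is background subtracted and detrended, with surrogate values for low signals and with no normalization between arrays. The deposited flags of the software are 0 or 1, another kind of value.

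The log2 of the processed intensity was taken, the 75th percentile of the 51538 spots left without controls was subtracted, spots with the non-uniformity flag (26 to 39 an array) were left out and the spots of a probe were averaged. Probes were matched to RefSeq symbols by accession, symbol or older symbol (28540, 2988 and 1170 probes), and the brightest tested probe gives a gene its value. Saturated spots numbered 0. A probe had to be well above background on both arrays of a clone, in either clone, which left 30512 probes for lmFit and eBayes (limma 3.58.1, R 4.3.3, no covariates, Benjamini-Hochberg threshold 0.05), and the analysis was tested on simulated data. Exact permutation of 4 arrays cannot give a two-sided p under 0.333. Tables and figures were made with Python 3.11.15, pandas 2.3.3 and matplotlib 3.10.9. The number of arrays limits the precision.

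The series' design text pairs arrays of the same number by RNA collection. The deviations of these pairs from their clone means had a correlation of -0.199 across probes, so that they did not deviate together. A paired fit (number as block), which changed no member's call, is an alternative.

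The members, lists and motifs were chosen with earlier results of these data known. Named genes are the members, PKP3, pathway genes past the threshold or changed by at least 1 on the log2 scale, and the 2 brightest further examples of a list. NAIP, BIRC7, CASP2, CASP10, TNFSF10, TNFRSF10B, TNFRSF1A, HUWE1 and CXCL1 were chosen after their values were seen. Some genes of the lists count in the totals but are not reported here by name.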

Additional observations from a re-analysis of the deposited data

How the results depend on the processing

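The count of members called was 0 in all 16 alternatives, and BAK1, BCL2L1, BCL2L11, BID, BIK and MCL1 kept their direction in each. With 1 array left out in turn, the median log2 fold change of the members ran from 0.10, without the first vec array, to 0.35, and was 0.14 without the second shpkp3-2 array, and the lone array of a clone is assumed to vary like the other clone. XIAP reversed to -0.0668 with median centring, to -0.0012 with quantile normalization and to -0.0024 with normexp background correction, and ran from -0.11 to 0.13 with an array left out. BCL2 reversed to 0.0889 as the mean of its probes and ran from -0.51 to 0.37 with an array left out, BIRC3 from -0.043 to 0.80 and BMF from -0.13 to 0.57. PKP3 kept its log2 fold change of -2.54 but lost its call with no filter on dim probes, with the weaker background flag and with the equal-variance test (adjusted p = 0.135, 0.145 and 0.436 from limma or, for the last, from that test). The cause was not tested.

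With the replicate block, the adjusted p of BCL2L1 was 0.0989 from limma (log2 fold change -0.88), and those of the other members, by their brightest probes, were 0.556 or more, while the share of all genes called rose to 2.64%. A crossed pairing, added after the data were seen, gave 0 member calls and 0.412% of all genes. The adjusted p of BCL2L1 ran from 0.0508 to 0.820 over all alternatives. Signal near background limits the dim BCL2L11 probes.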
